A study of Solanum lycopersicum with 4 samples.

Results

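Receptor-like kinases were the cDNAs in tomato (Solanum lycopersicum) fruit degradome libraries whose annotation held both the words receptor and kinase. They numbered 133 of the 5373 cDNAs that had at least 1 listed small RNA site, and held 250 of the 12619 distinct sites. The rule also left out annotations with resistance protein or brassinosteroid, which removed 0 genes. The fruits were whole fruits of the variety Ailsa Craig from greenhouse plants, taken at 4 stages: 5 days after pollination, mature green, breaker (when colour first appears) and 7 days after breaker. Each stage had 1 library, and the labels do not say how many fruits or plants went into it. All 4 groups share the variety, with no mutant or treatment among them.

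A receptor-like kinase is a plant membrane protein with an outer domain that binds a ligand, such as a peptide, a wall fragment or a microbial molecule, and an inner kinase domain that passes the signal on. Receptor-like proteins are relatives with the outer leucine-rich repeats and a membrane anchor but no kinase. The tomato Cf genes, which give resistance to the leaf mould fungus, are of that kind, and the microRNAs miR6022 and miR6023 are known to target Cf-type genes. In fruit, receptor kinases are best known from CLAVATA signalling in the flower meristem, which sets the number of locules.

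Degradome sequencing captures RNA pieces that have lost their cap but kept the poly(A) tail, and reads where each begins. Such an end can come from slicing by a small RNA, which is known to leave it opposite position 10 of the small RNA, or from ordinary decay. For each predicted site the deposited tables give the tags at the site and the tags on the whole cDNA, both in tags per 10000000 (TP10M), rounded to whole numbers. A whole-cDNA value exists for a library only where a site was listed there, so a missing value is not a 0. Library depth is unknown, so no counting interval accompanies these values. With 1 library per stage there is no replicate error and no test, and every difference below describes libraries.

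The annotations were mostly general. The largest group, 62 genes, was named Receptor like kinase, RLK, and 17 were named Receptor-like kinase. A leucine-rich repeat name that ends in RLP, the usual abbreviation of receptor-like protein, was carried by 19 genes. A kinase domain from InterPro, a database of protein families, was listed for 0 of those 19 and for 48 of the other 114. However, 81 of the 133 had no InterPro entry at all: the 19 RLP genes and the 62 named Receptor like kinase, RLK. The 0 of 19 therefore reflects missing entries and cannot show that the RLP genes lack a kinase. Another 6 genes were named Serine/threonine-protein kinase receptor, and 2 had a legume lectin domain, a kind of domain that binds sugars. The words of the rule also took in Solyc05g015610, a cytokinin receptor with the hormone-binding CHASE domain, listed at 393 TP10M on the whole cDNA at 7 days after breaker alone. It took in Solyc09g018060, to which the annotation gave the animal name erbB-4, with 33 TP10M at mature green alone. By the chromosome number in the gene name, 24 members were on chromosome 1.

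Sites that stood out among the receptor-like kinases were those of miR6022 on 6 leucine-rich repeat RLP genes of chromosome 1. These 6 entries had an alignment penalty of 1, where a lower penalty means a better match, and all 6 lay opposite position 10. They were the only entries with that penalty among the 250 under miR6022. Other entries under that name had penalties of 4.5 or more and at most 19 TP10M at a site. The sites lay at cDNA positions 1197, 1201, 1207, 1218 and 1254 in Solyc01g005870, Solyc01g005730, Solyc01g006550, Solyc01g009690 and Solyc01g005760, and at 524 in Solyc01g005720. In the youngest fruit, 5 days after pollination, 0 of the 6 sites were listed.

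Solyc01g005720, Solyc01g005760 and Solyc01g005870 had identical values at the site: 27 TP10M in mature green fruit, 8 at breaker and 30 in the library 7 days after breaker. The same tags may have been assigned to each copy, so the 3 genes count as 1 measurement of the site. Breaker was the low library of the 3. The log2 ratio, computed here and below after adding 1 TP10M to each value, was -1.64 from mature green to breaker and 1.78 from breaker to 7 days after breaker. The neighbouring copies had almost no tags at the same site. Solyc01g006550 had 2, 0 and 0 TP10M in these libraries, and Solyc01g005730 had 1 at mature green, its only listing. Solyc01g009690 was listed at 0 TP10M in the mature green library and in the one 7 days after breaker.

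CleaveLand, the program behind the tables, sorts sites into categories: 0 where the site has more tags than any other position of the cDNA, and 1 where it ties for the most. The miR6022 site was of category 0 in Solyc01g005720 and Solyc01g005870 in both the mature green library and the one 7 days after breaker, in Solyc01g005760 at 7 days after breaker, and in Solyc01g006550 at mature green. At breaker 0 of the 6 sites was of category 0 or 1, but those of Solyc01g005730 and Solyc01g009690 were not listed there. In the authors' deposited table the category 0 sites had p-values of 0.05, with q-values of 0.07 (mature green) and 0.06 (7 days after breaker).

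Tags on the whole cDNA of these copies moved the other way. Solyc01g005720 had 235, 299 and 199 TP10M at mature green, breaker and 7 days after breaker. Solyc01g005760 had 682, 1060 and 612 in the same order, and Solyc01g005870 had 104, 191 and 111. Breaker was the high library for each, by less than 2-fold against mature green (log2 ratios 0.35, 0.64 and 0.87). Solyc01g006550 had 160, 270 and 100 TP10M, a ratio of 0.75 into breaker and -1.42 after it. Solyc01g005730 had 209 at mature green, and Solyc01g009690 had 148 there and 104 at 7 days after breaker. Tags that match several copies may be counted in each, so these totals are not independent either.

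The site held a smaller share of the cDNA's tags at breaker. In Solyc01g005870 the share was 26.0% in mature green fruit, 4.19% at breaker and 27.0% in the library 7 days later. It was 11.5%, 2.68% and 15.1% in Solyc01g005720, and 3.96%, 0.755% and 4.90% in Solyc01g005760. A share within a library does not depend on how libraries are scaled to each other. A low share at breaker was common in the tables, however. Of 472 sites listed in these 3 libraries with at least 5 TP10M in one of them, 173 (36.7%) had a share at least 2-fold lower at breaker than in each neighbouring stage. So did 2 of the 3 distinct member sites (66.7%). The 3 were the miR6022 site, counted once, and the adjoining cDNA positions 759 and 760 of Solyc04g007880, described below, of which 760 did not. Over all cDNAs the figure was 69 of 194 opposite position 10 (35.6%), and 12 of the 56 of these with a penalty under 5 (21.4%). This comparison was chosen after the values had been seen.

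**Figure D1:**
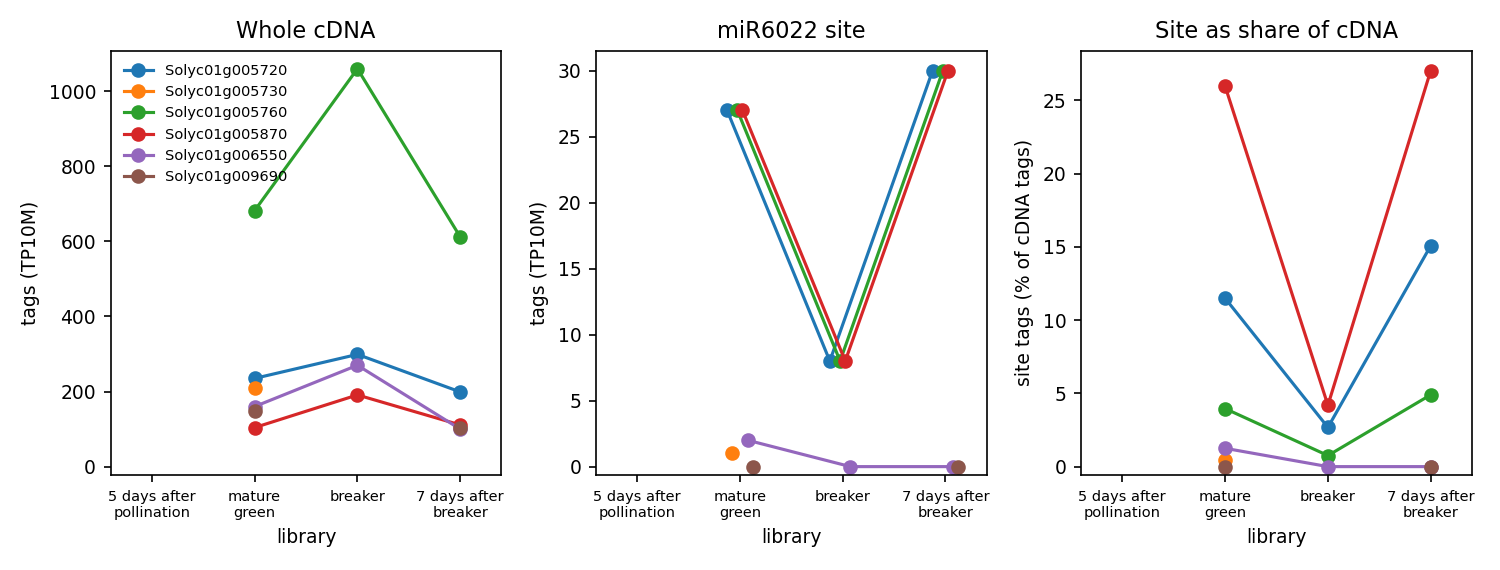
Tags in TP10M on the whole cDNA (left) and at the miR6022 site (middle), and site tags as a percentage of cDNA tags (right), for the 6 chromosome 1 genes with a penalty of 1, by library. Points at the site are shifted sideways where genes share values: the 3 genes with 27, 8 and 30 TP10M dip at breaker, while their whole-cDNA values are highest there, and no gene has a value at 5 days after pollination.

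Outside this group low penalties were few and came with almost no tags at the site. The seventh gene under miR6022, Solyc12g056300 (Receptor like kinase, RLK), had a penalty of 6.5, lay opposite position 9 and was listed at 0 TP10M at 5 days after pollination alone, with 109 TP10M on its cDNA. A single miR6023 site with a penalty of 1 was found, in the RLP gene Solyc01g014930 at cDNA position 80, with 0 TP10M at the site and 2 on the whole cDNA at mature green. Solyc10g006710, a serine/threonine kinase receptor, had a miR172 entry with a penalty of 2.5 opposite position 11. It had 0 and 1 TP10M at breaker and 7 days after breaker, against 311 and 543 on the whole cDNA. In all, 11 of 250 member entries (4.4%) had a penalty under 5, against 1296 of 12952 (10%) over all cDNAs. Position 10 held 36.4% of the members' sites and 34.5% of all sites.

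A site of category 0 or 1 in at least 1 library was held by 9 of the 133 receptor-like kinases (6.77%), against a background of 3.5% over all cDNAs. With the 3 genes of identical values counted once the number was 7. The background includes such copies, and no test was made of the difference. By annotation, 5 of the 19 RLP genes and 4 of the 114 other members held such a site, so the higher share came from the RLP genes. The 5 RLP genes were the 4 miR6022 genes above and Solyc12g009520 under miR6023. Solyc12g009520 had 4 of 97 TP10M at mature green and 0 of 32 at 7 days after breaker, at a penalty of 6.5. The 4 members without the RLP name each rested on 1 TP10M at the site. Solyc04g008430 (miR858) had 1 of 6 TP10M and Solyc12g008400 (miR156 and miR157) 1 of 13 at mature green. At breaker Solyc05g047550 (miR1919) had 1 of 9 TP10M, and Solyc05g008980 (miR5303, penalty 4) 1 of 10. Solyc05g008980 alone had a q-value of at most 0.05, at 0.04 in the authors' deposited table, which is 0.752% of members against 1.69% of all cDNAs.

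The most tagged site outside miR6022 was in Solyc04g007880, a serine/threonine-protein kinase receptor, under miR161 with a penalty of 7. Its tags were spread over adjoining positions: cDNA position 760, opposite position 9, had 9, 8, 2 and 7 TP10M in stage order, and position 759, opposite position 10, had 6, 8, 0 and 7. Summed over its 3 listed positions this gene had 16, 16, 2 and 14 TP10M, all of category 2 or 4, the lower categories. Breaker was again the low library, at -2.50 against mature green and 2.32 from there to 7 days after breaker. Its cDNA carried 1121, 1595, 1232 and 2303 TP10M, so the site had at most 0.803% of the tags at any single position.

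Most receptor-like kinases had next to no tags at the predicted sites. In 128 of the 133 genes (96.2%) the summed site value was 4 TP10M or less in each library, against 86.7% of all cDNAs, and in 61 (45.9%) it was 0 throughout, against 40.3%. Values are rounded, so a listed 0 need not mean that no tag was read, and a missing entry also counted as 0. The genes above 4 TP10M were the 3 with identical values at the miR6022 site, Solyc04g007880, and the RLP gene Solyc01g011040 under miR390. Solyc01g011040 summed to 5, 1, 0 and 1 TP10M. Over all members, with shared sites counted once, site tags summed to 71, 101, 22 and 72 TP10M in stage order. The miR6022 sites with a penalty of 1 made up 0, 30, 8 and 30 of these, and Solyc04g007880 made up 16, 16, 2 and 14. Only these 2 sets of values reached a sum of 10 TP10M in a pair of libraries. Both were at least 2-fold lower at breaker than at mature green, as were 51.6% of all cDNAs measured, and both were at least 2-fold higher 7 days later, as were 50.9%. The opposite calls, of which the members had 0, were made for 24.9% of all cDNAs into breaker and 24.5% after it. From 5 days after pollination to mature green 1 of the 2 was higher (background 22.7%) and 0 lower (29.6%), and to 7 days after breaker also 1 higher (26%) and 0 lower (34.2%). Since the miR6022 site was not listed in the youngest fruit, its ratios of 4.81 and 4.95 there read a missing entry as 0.

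Small RNA names spread widely over the members. They covered 41 of the 50 names in the tables, led by miR390 with 16 genes, miR172 with 15, and miR1916, miR414 and miR6023 with 9 each. The small RNA miR390 is known to start production of small RNAs from TAS3. Members were 17.4% of the 92 cDNAs under miR390, beside 133 of the 5373 cDNAs under any name. Their miR390 sites had at most 3 TP10M and 0 genes of category 0 or 1. Its best match was Solyc09g061930 with a penalty of 3.5, opposite position 9, listed at 0 of 54 TP10M at 7 days after breaker. Under miR172 members made up 5.91% of 254 cDNAs, with at most 1 TP10M at a site.

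How many libraries listed a cDNA was counted for the receptor-like kinases and for all cDNAs, with no test of the difference. The members had 1.88 distinct sites per gene, against 2.35 over all cDNAs. A site was listed for 82, 72, 35 and 51 of the 133 in stage order. These are 61.7%, 54.1%, 26.3% and 38.3%, against 69.2%, 62.9%, 35% and 55.4% of all 5373 cDNAs. Only 9 members (6.77%) were listed in all 4 libraries, against 19.4%, and 68 (51.1%) in a single one, against 36.5%. The youngest fruit was the sole library for 37 of them (27.8%, background 16.6%), and mature green for 20 (15%, background 9.64%). Breaker was the sole library for 6 (4.51%, background 3.15%), and 7 days after breaker for 5 (3.76%, background 7.05%). Breaker had the lowest share of cDNAs listed in both sets, and the part of library depth in all these shares was not tested.

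**Figure D2:**
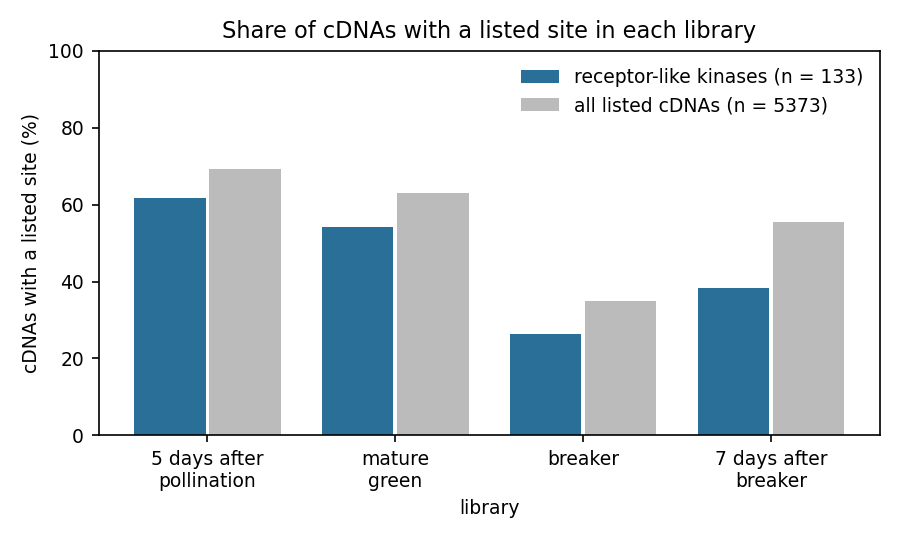
Percentage of cDNAs with at least 1 listed site in each library, for the 133 receptor-like kinases (dark bars) and for all 5373 cDNAs (grey bars). Both sets are lowest at breaker (26.3% and 35%), and the dark bar is the lower one in each library.

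Whole-cDNA tags reflect how much of a transcript was present and how fast it decayed, which cannot be told apart here, nor can fewer cells with a transcript be told from less of it in each cell. The values are not divided by cDNA length, so they compare libraries for 1 gene and not genes with each other. Among the 9 members listed throughout, Solyc02g091840 (Receptor like kinase, RLK) had 1617, 2041, 1697 and 1529 TP10M in stage order. Solyc04g007880, given above, was at least 2-fold higher at 7 days after breaker than at 5 days after pollination (1.04). The lectin receptor kinase Solyc09g011840 alternated, with 497, 853, 444 and 770.

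Several of these 9 were low at breaker. Solyc01g108840 (Receptor like kinase, RLK) had 657, 573, 170 and 584 TP10M, a log2 ratio of -1.75 into breaker and 1.77 after it. The RLP genes Solyc01g011040 (859, 724, 385 and 611) and Solyc10g006930 (468, 468, 207 and 343) were also lowest at breaker, by a smaller ratio. The receptor-like kinase Solyc03g121050 went from 432 and 276 in green fruit to 104 and 105. Solyc03g078520 had 369 in the youngest fruit and 249, 235 and 238 later. Solyc03g006920, a receptor kinase-like protein, had 85, 138, 236 and 258 TP10M, higher at each step as deposited. After the scaling described below, its last step turned from 0.13 to -0.35.

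The highest library was 5 days after pollination for 5 of the 9, with Solyc10g006930 tied with mature green. It was mature green and 7 days after breaker for 2 each, and breaker for 0. Of the 1044 cDNAs listed throughout, 39.3%, 17.4%, 13.4% and 29.9% were highest in the 4 libraries in stage order. After scaling the members' tally in stage order was 4, 2, 2 and 1, with Solyc02g091840 and Solyc03g006920 highest at breaker, and the shares of all cDNAs were 31.9%, 17.9%, 28.1% and 22.1%. Without the breaker library, 21 members were listed in the other 3, with 11 highest in the youngest fruit (52.4%, background 46.2%), 4 in mature green fruit and 6 at 7 days after breaker.

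**Figure D3:**
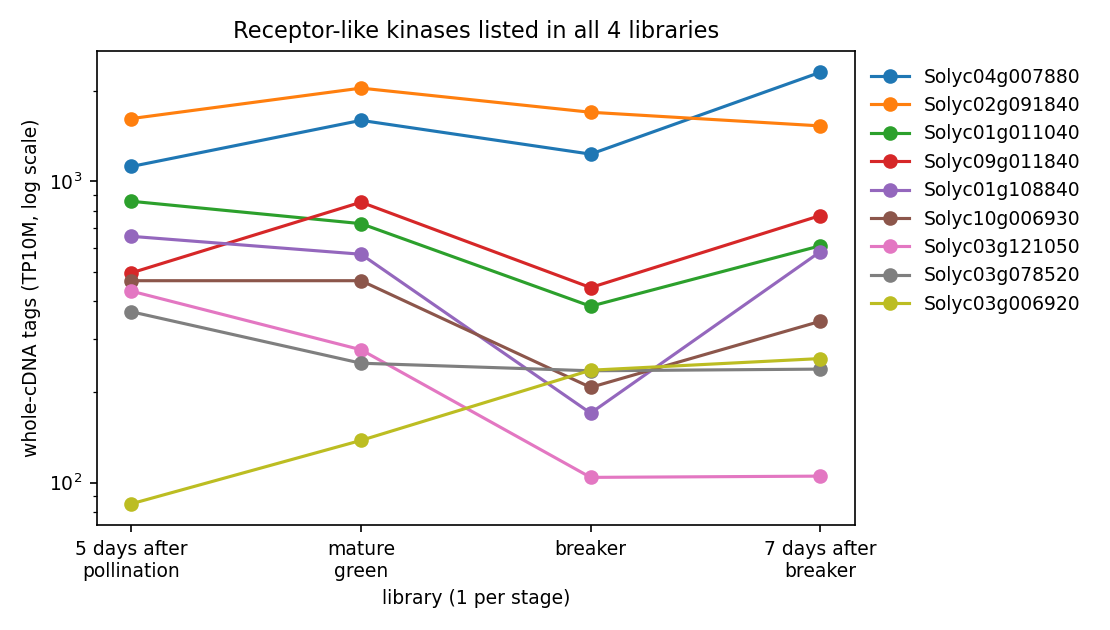
Whole-cDNA tags in TP10M (log axis) in each library for the 9 receptor-like kinases listed in all 4, with 1 library per stage and so no error bars. Solyc01g108840 is at 170 at breaker and at 584 after it, while Solyc03g006920 runs from 85 to 258; after scaling its last step turns downward.

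Between 5 days after pollination and mature green, 37 members had a value in both libraries with a sum of at least 10 TP10M. A call of higher or lower needed a 2-fold difference. Lower at mature green were 12 of them (32.4%, background 18.7%) and higher were 2 (5.41%, background 10.3%). The median log2 ratio was -0.57, against -0.23 over all 2347 cDNAs. Solyc01g091230 (Receptor like kinase, RLK) went from 369 to 20 TP10M (-4.14). Solyc09g007110 had 178 and 42 (-2.06), Solyc02g093100 had 346 and 102 (-1.75), and Solyc02g093970 had 131 and 46 (-1.49). Solyc04g072570 went from 462 to 197 (-1.23) and on to 28 at breaker. All 5 had the same general RLK annotation. The 2 higher genes were Solyc12g010740, from 433 to 972 (1.16), and Solyc02g081070, from 342 to 688 (1.01). Below 2-fold came Solyc07g040940, from 175 to 343 (0.97), and Solyc12g098570, from 191 to 351 (0.87).

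Median-of-ratios scaling, an alternative that sets the libraries to a common level over 1021 cDNAs, moves all log2 ratios of this pair up by 0.12. It gave 3 higher and 8 lower members, or 27.3% higher among those called against 14.3% as deposited. Over all cDNAs 11.8% were then higher and 15.5% lower, or 43.3% higher among those called against 35.5%. For comparison, 52 other protein kinases without the word receptor had 3 higher (5.77%) and 4 lower (7.69%), with a median of -0.22, and 4 of each after scaling. From mature green to breaker 22 other protein kinases had 2 higher (9.09%) and 5 lower (22.7%), with a median of -0.77. Scaling made these 2 and 4 (18.2%), with a median of -0.35. From breaker to 7 days after breaker 18 had 7 higher (38.9%) and 1 lower (5.56%), with a median of 0.66. Scaling lowered this to 3 higher (16.7%) and 1 lower (5.56%), with a median of 0.18. Between the youngest and the ripest fruit 43 had 4 higher (9.3%) and 11 lower (25.6%). Their median there was -0.44, below that of the receptor-like kinases (-0.27). The scaled medians were -0.345 and -0.205, with 4 higher and 9 lower of 42 other protein kinases. The differences between these kinases and the receptor-like kinases were not tested.

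From mature green to breaker 22 members were measured, of which 8 were lower (36.4%, background 28.9%) and 0 higher (background 8.67%). The median was -0.91, against -0.51 over 1431 cDNAs. Scaling moves this pair up by 0.42, and the members then split into 4 higher (18.2%) and 4 lower (18.2%), beside 14.2% and 16.7% of all cDNAs. The scaled median was -0.49, against -0.09 over all cDNAs. The 4 higher ones were then Solyc01g005760, Solyc01g005870, Solyc01g006550 and Solyc03g006920. All but the last have a predicted miR6022 site, and their totals may share tags and so may not be separate measurements. Solyc04g072570 (-2.77) and Solyc08g079740, from 156 to 26 TP10M (-2.54), were still lower by more than the shift plus 2-fold. So were Solyc02g081070, from 688 to 189 (-1.86), and Solyc01g108840. All 4 are annotated as RLK. The 5 largest ratios upward were the 4 miR6022 genes given above and Solyc03g006920 (0.77), each under 2-fold.

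From breaker to 7 days after breaker 19 members were measured, with 2 higher (10.5%, background 23.5%) and 1 lower (5.26%, background 7.55%). Their median was 0.13, against 0.45 over 1378 cDNAs. The higher genes were Solyc01g108840 and the receptor-like protein kinase Solyc03g078360, from 265 to 531 TP10M (1.0). The lower gene was Solyc01g006550, which has a predicted miR6022 site. Solyc10g006710 went from 311 to 543 (0.80), and Solyc10g047140 from 155 to 132 (-0.23). Scaling moves this pair down by 0.48 and gave 1 higher (5.26%) and 4 lower (21.1%), beside 9.29% and 13.7% of all cDNAs. The 4 lower all had a predicted miR6022 site: Solyc01g005720, Solyc01g005760, Solyc01g005870 and Solyc01g006550. Their totals may share tags. The pair of mature green and 7 days after breaker, added after the data had been seen so as to pass over breaker, had 2 higher (5.88%, background 10.2%) and 9 lower (26.5%, background 16.3%) of 34 members. Its median was -0.33, against -0.02 over all cDNAs.

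Between the youngest and the ripest fruit 9 of 28 members were lower (32.1%, background 24.2%) and 4 higher (14.3%, background 13.7%), with the same counts after scaling. The median of -0.27 is set beside -0.24 over all 2089 cDNAs. Lower were Solyc01g094830, from 470 to 65 TP10M (-2.84), Solyc12g099830, from 269 to 56 (-2.24), Solyc03g121050 (-2.03), Solyc01g098410, from 35 to 8 (-2.0), and Solyc01g104970, from 317 to 101 (-1.64). Solyc01g094830 is annotated as a receptor-like protein kinase but its listed InterPro domain is that of MatE transporters, which export toxins and metabolites. The largest value upward was Solyc02g070890 (Receptor like kinase, RLK), from 298 to 1628 TP10M (2.45), with no value at mature green or breaker. Solyc03g006920 (1.59), Solyc04g007880 and Solyc07g040940 (1.01, with 354 TP10M in the ripest fruit) were the other higher genes.

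**Figure D4:**
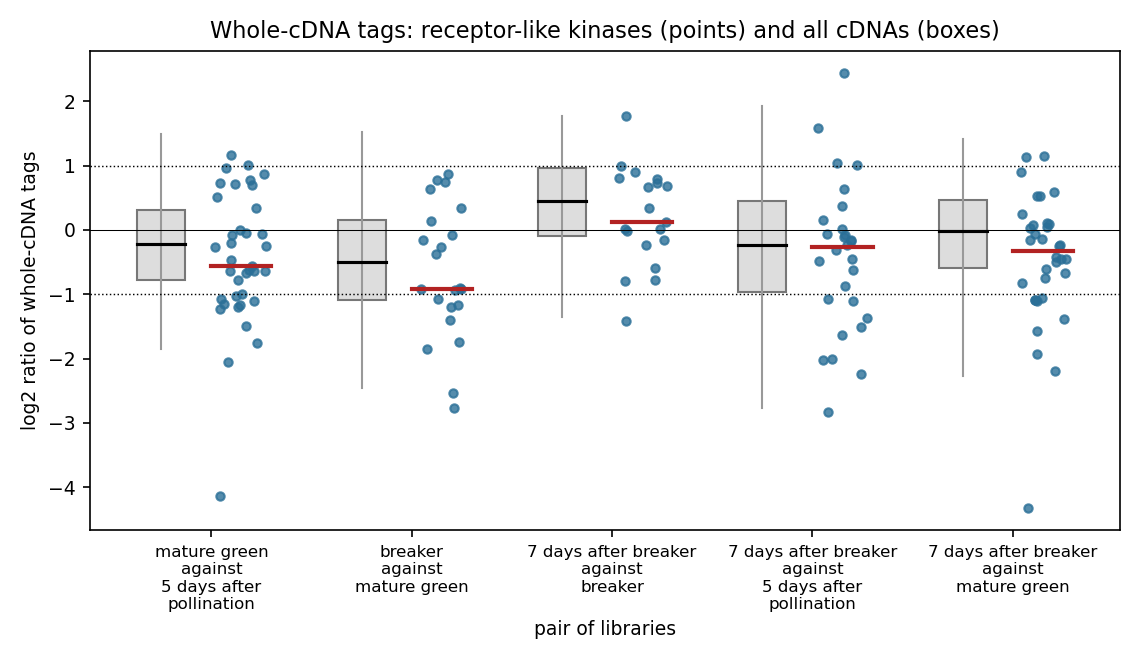
Log2 ratios of whole-cDNA tags for 5 pairs of libraries: blue points are receptor-like kinases with a sum of at least 10 TP10M, red bars their medians, and grey boxes the quartiles of all cDNAs with their medians in black and lines from the 5th to the 95th percentile. Dotted lines mark 2-fold; the red bar lies below the black one in each pair, by most between breaker and mature green.

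Members with a value in 1 library cannot be compared between stages. In the youngest fruit they included Solyc08g080830 with 1283 TP10M on the cDNA, Solyc03g118510 with 922 and Solyc08g061560 with 822, all annotated as RLK. Solyc06g051030, of the same annotation, had 718, 687 and 721 at 5 days after pollination, mature green and 7 days after breaker.

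Genes around the receptors were sparse in the tables. Secreted peptides, the ligands of many receptor kinases, had 3 listed cDNAs, among them the rapid alkalinization factor 5 gene Solyc02g089080 with 894 TP10M in the youngest fruit and 1246 in mature green fruit. Of 5 MAP kinase cascade genes, which relay receptor signals, 2 of the 4 measured were lower in the ripest than in the youngest fruit, a pair in which 24.2% of all cDNAs were lower and 13.7% higher. One was MAP kinase 3, Solyc06g005170, with 2174, 1686 and 371 TP10M at 5 days after pollination, mature green and 7 days after breaker. The MAP kinase kinase Solyc03g123800 went the other way, with 320, 268, 647 and 507 TP10M in stage order. It was higher at breaker than at mature green (1.27), as were 8.67% of all cDNAs. The list of calcium-dependent protein kinase names had 18 cDNAs, including the adapter proteins Solyc02g083990 and Solyc09g082140. Of these 18, 7 were measured between the youngest and the ripest fruit, with 1 higher and 4 lower. Among the lower were the adapter Solyc02g083990, from 252 to 74 TP10M, and Solyc11g032010, from 8 to 3. Protein phosphatases 2C, which reverse kinase signals, also had 18, with 2 higher and 1 lower of 6. Of 5 proteins of the 14-3-3 type, which bind phosphorylated partners, 2 of the 4 measured were lower and 0 higher. Respiratory burst oxidases had 2 listed cDNAs and exchange factors 4, with 1 measured in the pair and 0 called. Brassinosteroid names had 0. Receptor-like proteins without the word kinase had 3, including Solyc02g080080 with 58 TP10M at mature green and 46 at breaker. Only 1 of these cDNAs, from the list of calcium-dependent protein kinase names, had a site of category 0 or 1.

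Marker genes of the stages were set beside the labels. Chlorophyll-binding proteins, of which 4 were listed, were lower in 3 of 3 from 5 days after pollination to mature green and in 3 of 3 from there to breaker. Over all cDNAs 18.7% and 28.9% were lower in these pairs. Of 3 ripening genes measured from mature green to breaker 2 were higher (background 8.67%), among them the ethylene-forming oxidase Solyc07g049530, from 1374 to 16973 TP10M. In the pairs with the ripest fruit the ripening list was mixed. Against the youngest fruit 4 of 9 were higher and 3 lower (13.7% and 24.2% of all cDNAs). Against breaker 1 of 6 was higher and 1 lower (23.5% and 7.55%). The pectinesterase Solyc03g112990 had 390, 322, 206 and 140 TP10M in stage order. Seed storage and late embryogenesis genes had 5 of 7 lower from mature green to breaker and 0 higher (28.9% and 8.67% of all cDNAs), and their part in the values of the receptor-like kinases was not tested.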

How the data were processed

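Degradome (PARE) libraries of whole fruit were made at 4 stages, 1 library per stage. CASAVA 1.8.0 is named in the submitters' processing notes, and no source used here gives the aligner, filters or library totals. Per the file headers, the 3 deposited tables hold CleaveLand output on ITAG2.3 cDNAs for sites opposite small RNA positions 9, 10 and 11. The authors give whole-cDNA and site tags as a normalized score, tags per 10000000 rounded to whole numbers, together with deposited p-values and q-values and a peak category. The headers call the last stage red ripe, and the labels place it 7 days after breaker. Rounding makes site values of 0 and 1 TP10M uncertain, and tags matching several copies may be counted in each. The listed sites at 0 TP10M were exactly those of category 4.

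From these values the tables were joined, log2 ratios were taken after adding 1 TP10M, and a 2-fold difference was called where both libraries summed to at least 10 TP10M. A dash counted as missing for the whole cDNA and as 0 at the site. Sites under the same small RNA and opposite the same position of it, with the same values in each library, at least 5 TP10M in one, counted once. Calls were tried on simulated data with planted changes larger than 2-fold and counting noise alone. That trial had no variation between fruits or libraries, so it cannot show how reliable the 2-fold calls are here. Python 3.11.15, pandas 2.3.3, numpy 2.4.6 and matplotlib 3.10.9 were used. Alternatives were the pseudocount, the minimum sum, median-of-ratios scaling, the position, the penalty, the counting of identical genes, and the choice of small RNAs and members.

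Members and gene lists were chosen with earlier results of these data known. Genes were named by rule: every member of category 0 or 1, under miR6022 or with a q-value of at most 0.05, the 6 highest whole-cDNA values per library, the 5 largest ratios each way per pair, and the 5 lowest penalties. Solyc05g015610, Solyc09g018060, Solyc09g061930, Solyc03g078520, Solyc10g006930 and the named pathway and marker genes fell outside it and were chosen after their values were seen.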

Additional observations from a re-analysis of the deposited data

How the results depend on the processing

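Of 139 alternative values, 117 stayed within 1.5 times the main count or sum, and 22 did not. With median-of-ratios scaling, whole-cDNA calls from mature green to breaker became 4 higher and 4 lower, and from breaker to 7 days after breaker 1 higher and 4 lower. The same scaling, added for the highest stage after seeing the data, put 2 of 9 members highest at breaker and 1 at 7 days after breaker. With a pseudocount of 5 TP10M, 1 member was higher from 5 days after pollination to mature green and 1 from breaker to 7 days after breaker. With each gene counted separately, site tags summed to 155, 38 and 132 TP10M at mature green, breaker and 7 days after breaker. Site calls were then 3 higher from 5 days after pollination to mature green and 3 to 7 days after breaker, 4 lower from mature green to breaker, and 4 higher after breaker. With position 10 alone, and with penalties under 5 alone, 1 site value was lower from mature green to breaker and 1 higher after it, because only the miR6022 set was then measured. Without the breaker library, an alternative chosen after seeing the data, 11, 4 and 6 members were highest at 5 days after pollination, mature green and 7 days after breaker, over more genes. The causes of the other shifts were not tested. No paired analysis was possible because each stage has 1 library. Depth is unknown, so low site values carry an unknown counting error.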
